A study of Drosophila melanogaster with 9 samples.

Results

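Glutathione S-transferases and UDP-glycosyltransferases are enzyme families that attach a small polar group to reactive or lipophilic molecules. They were followed here in a Notch-induced neural stem cell tumor of *Drosophila melanogaster* and in its allografts. The genes were taken by symbol: *GstD*, *GstE*, *GstO*, *GstS*, *GstT* or *GstZ* followed by a digit, and *Ugt* followed by a digit. This gave 53 genes of the 13215 features listed in the deposited comparisons, 32 glutathione S-transferases and 21 UDP-glycosyltransferases. The first family held 10 Delta, 12 Epsilon, 3 Omega, 1 Sigma, 4 Theta and 2 Zeta class genes. Under the same symbols the BDGP6.54 annotation holds 35 genes of each family, so 3 glutathione S-transferase genes and 14 UDP-glycosyltransferase genes were not analysed here.

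RNA was sequenced from 9 libraries in 3 groups of 3. N-T0 libraries came from first-stage allografts, grown for 8 to 10 days in adult female w1118 hosts, and N-T3 libraries came from fourth-stage allografts, grown for 6 to 8 days in new hosts of the same kind, with the masses of 25 hosts in each library. N-FACS libraries came from the primary tumor, as GFP-positive cells sorted from 150 3rd instar larval brains each, 4 days after clone induction. All 3 groups carried *NΔecd*, a Notch receptor without its extracellular domain, and GFP, both driven from the actin promoter in random flip-out clones. No group without *NΔecd* was compared. The allograft masses were collected whole, so RNA of host cells could enter N-T0 and N-T3, whereas N-FACS cells were sorted. Sorting, host, age and allografting therefore cannot be told apart in any comparison with N-FACS. In such bulk samples, fewer cells of a type and less RNA per cell cannot be told apart either.

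Glutathione S-transferases join the tripeptide glutathione to electrophilic compounds, among them insecticides, plant toxins and products of lipid peroxidation. The Delta and Epsilon classes are expanded in insects and lie largely in gene arrays, whereas the Omega, Sigma, Theta and Zeta classes have relatives in most animals. UDP-glycosyltransferases are membrane enzymes of the endoplasmic reticulum that transfer a sugar, in insects mostly glucose, from a UDP-sugar to small lipophilic molecules. Conjugates of both kinds leave the cell through ABC transporters. In flies these enzymes are best known from the gut, the Malpighian tubules and the fat body.

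The deposited comparisons give, for each gene, a mean over 6 libraries, a log2 fold change and its standard error (SE), and no value per library. The spread within a group therefore stands only in the SE. Group means below are those implied by the deposited mean and log2 fold change, in normalized counts (n = 3 libraries each). A gene was called where its level changed by 0.5 or more on the log2 scale with a DESeq2 adjusted p of 0.05 or less, and every adjusted p below is DESeq2's. The sources do not say that the 3 libraries of a group were grown independently, so p-values measure the spread between these libraries. The N-T0 and N-T3 comparisons share the N-FACS libraries, and their values are set side by side without a test of one against the other.

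Among the glutathione S-transferases, 11 of 32 genes were called higher and 1 lower in N-T0 than in N-FACS, where 15.3% and 16.2% of all features with an adjusted p were called higher and lower. In N-T3, 18 of 31 listed genes were called higher and 3 lower than in N-FACS, against 17.2% and 18.2% of all features. Every one of the 11 genes higher in N-T0 was also higher in N-T3. The median log2 fold change of the members with a mean of at least 10 normalized counts was 0.95 in N-T0 and 1.00 in N-T3 (26 genes each), and that of all such features was 0.015 and 0.0019. Over all listed members, with no minimum, it was 0.98 in N-T0 and 1.02 in N-T3. With a mean of at least 30 normalized counts, 10 of 21 members were higher and 1 lower in N-T0, beside 18.6% and 20.6% of features. In N-T3, 15 of 22 were higher and 3 lower, beside 22.0% and 23.7%. *GstD5* in N-T0, and *GstD5*, *GstD6* and *GstE11* in N-T3, reached this minimum only through the allograft level. That raises these counts of higher genes, so they add no separate support. *GstD5* and *GstD6* also reached the minimum of 10 only in this way. When the test was made against a change of 0.5 rather than 0, 5 of 32 members were called higher in N-T0. In N-T3, 9 of 31 were then called higher and 1 lower. The share of all features called in this test was not counted, so these counts have no background beside them.

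**Figure D1:**
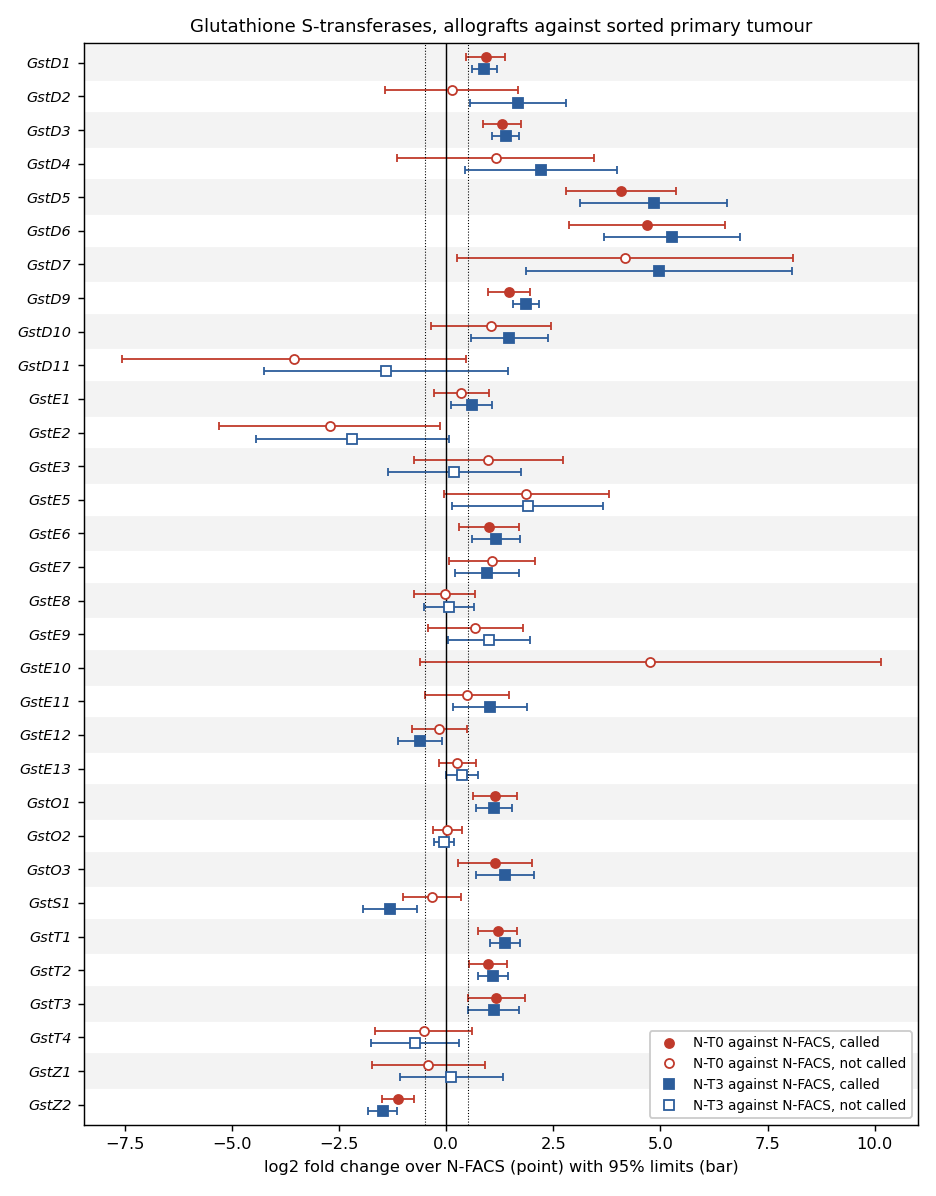
Log2 fold change of each glutathione S-transferase gene over N-FACS, with 95% limits, for N-T0 (red circles) and N-T3 (blue squares), where filled symbols are called genes and dotted lines mark a change of 0.5 either way. The Delta genes lie to the right apart from *GstD11* and, in N-T0, *GstD2*, which lies near 0 (0.13). The N-T0 limits of *GstD2*, *GstD4* and *GstD10* span 0. *GstO2* lies at 0 and *GstZ2* lies to the left.

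The Delta class held 5 of the 11 genes higher in N-T0 and 9 of the 18 higher in N-T3, and none of its genes was called lower. Of the 10 Delta genes these are 50% and 90%, beside 15.3% and 17.2% of all features. *GstD1*, known for metabolizing DDT and as a reporter of oxidative stress, was the most abundant of them. It averaged 5762 normalized counts in N-T0 against 3045 in N-FACS (log2 fold change 0.92, SE 0.23, adjusted p = 0.000491), and 5788 in N-T3 against 3120 in N-FACS (0.89, SE 0.15, adjusted p = 2.20e-08). *GstD3* averaged 1644 in N-T0 and 668 in N-FACS (adjusted p = 1.60e-07), and its log2 fold change in N-T3 was 1.38 (SE 0.16). *GstD9* averaged 1656 in N-T0 and 603 in N-FACS, a log2 fold change of 1.46 (SE 0.25), and its change in N-T3 was 1.87 (SE 0.16). These 3 genes were well expressed in the primary tumor cells already, and rose about as much as the family median or somewhat more.

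*GstD5* and *GstD6* were scarce in N-FACS and had larger changes. *GstD5* averaged 166 normalized counts in N-T0 against 9.83 in N-FACS (log2 fold change 4.08, SE 0.66, adjusted p = 8.15e-09) and 286 in N-T3 against 9.98 in N-FACS (4.84, SE 0.87). *GstD6* averaged 39.9 in N-T0 and 59.8 in N-T3, against 1.54 and 1.55 in N-FACS. Since this N-FACS level lies under the floor of 3 normalized counts set for a group mean, the change is given as at least 13.3-fold higher in N-T0 and at least 19.9-fold higher in N-T3. *GstD10* averaged 77.3 in N-T0 and 37.5 in N-FACS and was not called, with a log2 fold change of 1.04 (SE 0.71). In N-T3 it averaged 106 against 38.0 in N-FACS and was called (1.47, SE 0.46, adjusted p = 0.00402). *GstD2*, *GstD4* and *GstD7* were likewise called in N-T3 and not in N-T0, each with fewer than 41 normalized counts in every group. *GstD11* was not called in either stage.

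The Delta genes lie in an array on chromosome 3R, between positions 12364776 and 12385624 of BDGP6.54, with *GstD10* at one end and *GstD11* at the other. *GstD5*, *GstD6* and *GstD7* are neighbors in it. Their fitted log2 fold changes over N-FACS ran from 4.08 to 5.27 over both stages, and those of the other 7 genes of the array from -3.55 to 2.21. The lowest, of *GstD11* in N-T0, came from 0.419 normalized counts against 4.90 in N-FACS, and is -0.71 with the floor in place. *GstD7*, like *GstD6*, was under the floor in N-FACS, and with the floor in place its log2 change is at least 1.02 in N-T0, where it was not called, and at least 1.79 in N-T3. The difference between neighbors was not tested. The Delta genes are close in sequence, and how reads that match several of them were counted is not given in the sources used here, so the share of each within the array is uncertain.

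**Figure D2:**
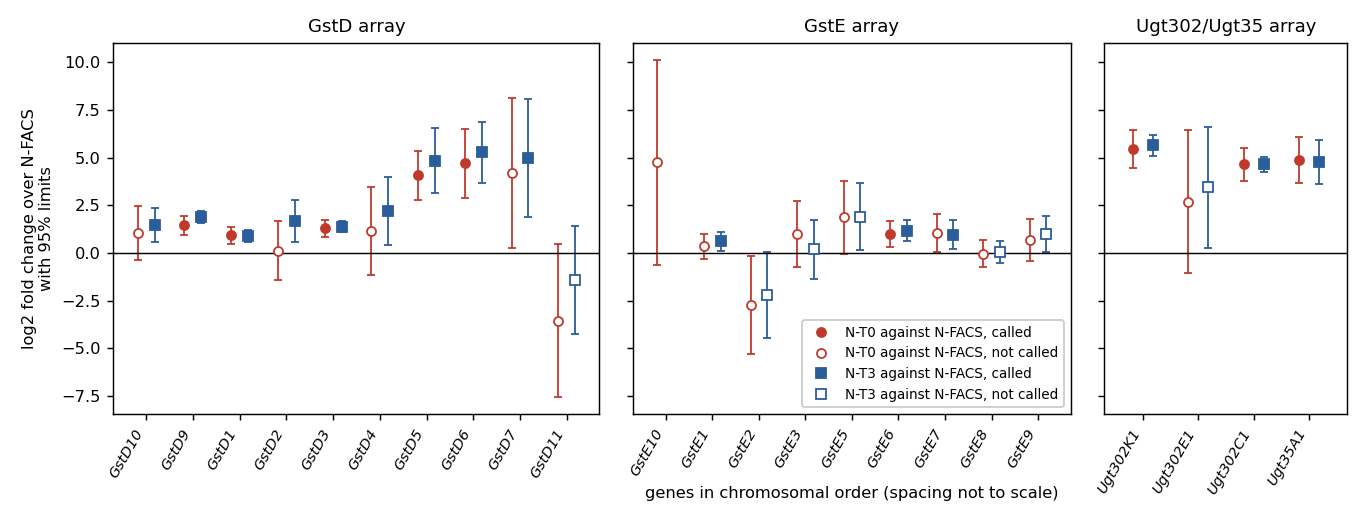
Log2 fold change over N-FACS with 95% limits for the genes of 3 arrays in chromosomal order, N-T0 as red circles and N-T3 as blue squares, with filled symbols for called genes. In the Delta array *GstD5*, *GstD6* and *GstD7* stand next to each other with fitted changes above 4 (*GstD6* and *GstD7* from an N-FACS level under 3 normalized counts), and in the *Ugt302*/*Ugt35* array 3 of 4 genes are called in both stages.

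In the Epsilon class, 1 of 12 genes was called higher in N-T0, a share of 8.33% and thus below the 15.3% of all features. In N-T3 4 of 11 listed genes were called higher and 1 lower, 36.4% and 9.09% beside the 17.2% and 18.2% of all features. *GstE6* was the most abundant by its allograft level, with 701 normalized counts in N-T0 and 352 in N-FACS (log2 fold change 0.99, SE 0.36, adjusted p = 0.0202). In N-T3 it averaged 810 against 360 in N-FACS (1.17, SE 0.28, adjusted p = 0.000153). *GstE1* averaged 483 in N-T3 and 319 in N-FACS (0.60, SE 0.24), *GstE7* averaged 180 and 92.3 (0.96, SE 0.38), and *GstE11* averaged 57.2 and 28.3 (1.02, SE 0.44). None of these 3 was called in N-T0, where their log2 fold changes were 0.36, 1.06 and 0.49. The gene lower in N-T3 was *GstE12*, with 128 normalized counts against 196 in N-FACS (-0.62, SE 0.26, adjusted p = 0.0417), and its change in N-T0 was -0.17 (SE 0.33). The adjusted p of each of these 4 N-T3 calls lay between 0.0288 and 0.0490, near the threshold. *GstE10* was not listed in the comparison of N-T3 with N-FACS and was not called in N-T0, with 4.33 normalized counts in N-T0 and 0.160 in N-FACS.

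Of the 12 Epsilon genes, 9 lie in an array on chromosome 2R between positions 18396638 and 18409835. Within it 1 of 9 genes was higher in N-T0, a share below that of all features (15.3%). In N-T3, where *GstE10* was not listed, 3 of the listed genes of the array were higher, beside 17.2% of all features. *GstE8*, in the same array, differed little in either stage, with 142 normalized counts in N-T0 against 146 in N-FACS (95% limits of the log2 fold change -0.74 to 0.66).

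The Theta class rose in 3 of 4 genes in both stages, by similar amounts, beside 15.3% of all features in N-T0 and 17.2% in N-T3. *GstT1* averaged 603 normalized counts in N-T0 against 263 in N-FACS (log2 fold change 1.20, SE 0.23, adjusted p = 2.01e-06), and its change in N-T3 was 1.36 (SE 0.18). *GstT2*, its neighbor on 2R, averaged 368 in N-T0 and 187 in N-FACS (0.98, SE 0.22), and its change in N-T3 was 1.09 (SE 0.18). Exons of *GstT2* share 223 bases with *CG12926* on the opposite strand, and whether counting used strand is not given in the sources used here. *GstT3*, on the X chromosome, averaged 189 in N-T0 and 83.9 in N-FACS (1.17, SE 0.34), and its change in N-T3 was 1.11 (SE 0.30). *GstT4* was not called, at 25.9 normalized counts in N-T0 against 37.3 in N-FACS.

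The 3 Omega genes taken by symbol lie close together on chromosome 3L. Of them 2 were called higher in both stages, beside 15.3% of all features in N-T0 and 17.2% in N-T3. *GstO1* averaged 361 normalized counts in N-T0 against 163 in N-FACS (log2 fold change 1.14, SE 0.26, adjusted p = 9.90e-05), and its change in N-T3 was 1.11 (SE 0.22). *GstO3* averaged 135 in N-T0 and 61.1 in N-FACS (1.14, SE 0.44, adjusted p = 0.0320), and its change in N-T3 was 1.37 (SE 0.34). *GstO2*, the most abundant Omega gene, whose exons share 61 bases with *se* on the opposite strand, averaged 2418 in N-T0 and 2381 in N-FACS. Its log2 fold change was 0.02 in N-T0 (95% limits -0.32 to 0.36) and -0.05 in N-T3 (-0.29 to 0.19), so both intervals lie within 0.5 of no change. It was the only glutathione S-transferase gene in the first of these comparisons, and in the second, whose limits stayed within 0.5.

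The lower genes belonged to the Zeta, Sigma and Epsilon classes. *GstZ2*, of the class that holds the maleylacetoacetate isomerase of tyrosine breakdown, averaged 5767 normalized counts in N-T0 against 12587 in N-FACS (log2 fold change -1.13, SE 0.19, adjusted p = 2.68e-08). In N-T3 it averaged 4601 against 12896 in N-FACS (-1.49, SE 0.17, adjusted p = 1.79e-16). Its neighbor *GstZ1* had 11.4 normalized counts in N-T0 against 15.2 in N-FACS and was not called. *GstS1*, the Sigma class enzyme, which conjugates a product of lipid peroxidation and is abundant in flight muscle, averaged 618 in N-T0 and 777 in N-FACS, and was not called (-0.33, SE 0.35). In N-T3 it averaged 319 against 796 in N-FACS and was called lower (-1.32, SE 0.32, adjusted p = 0.000187).

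The share of each enzyme in the family differed between the groups. Per kilobase of exon, the family summed to 19869 normalized counts in N-T0 against 14989 in N-FACS. The length used joins all annotated exons of a gene. Which transcripts were expressed is unknown, so levels of different genes compare only roughly on this scale. *GstD1* made up 34.4% of the sum in N-T0 and *GstZ2* 12.5%, whereas in N-FACS *GstZ2* made up 36.1% and *GstD1* 24.1%. In N-T3 the sum was 20872, of which *GstD1* made up 32.9% and *GstD9* 13.7%, against 15346 in N-FACS. Without division by length, the sums were 22053 in N-T0 against 22501 in N-FACS, and 21868 in N-T3 against 23043 in N-FACS. *GstZ2* has 2325 bases of exon and *GstD1* 843, so the decrease of the first weighs more in the unscaled sum. Unscaled, *GstZ2* and *GstD1* were level in N-T0, at 5767 and 5762 normalized counts, so the lead of *GstD1* in N-T0 rests on the division by length, while in N-T3 it led on both scales. No test was made on the sums.

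**Figure D3:**
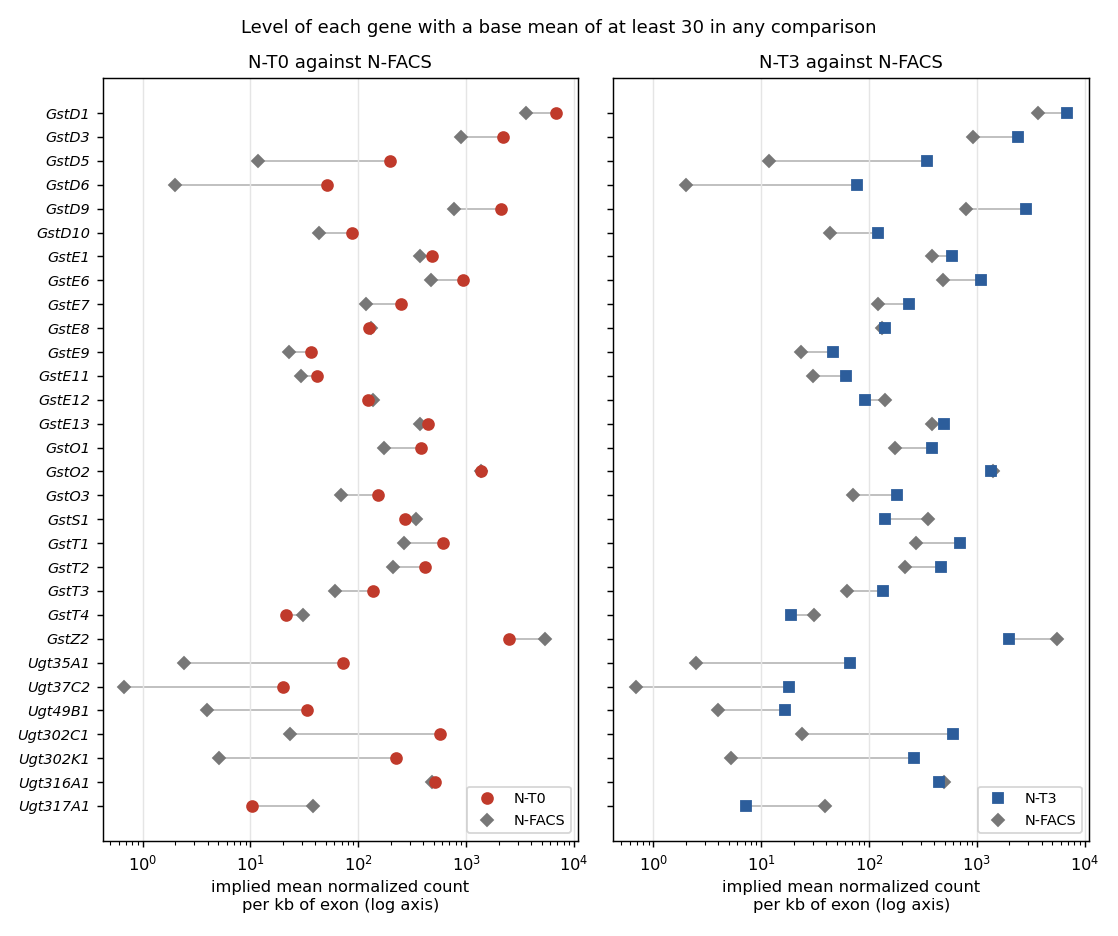
Implied group mean per kilobase of exon, on a log axis, of each gene with a mean of at least 30 normalized counts in any comparison, with the allograft (colored) and N-FACS (gray diamonds) joined by a line. *GstD1* leads both allografts at 6835 in N-T0 and 6866 in N-T3, *GstZ2* leads N-FACS at 5414 and 5547, and among the genes with long lines are *GstD5*, *GstD6*, *Ugt35A1*, *Ugt37C2*, *Ugt302C1* and *Ugt302K1*.

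Among the UDP-glycosyltransferases, 8 of the 19 genes with an adjusted p were called higher and 1 lower in N-T0 than in N-FACS, against the 15.3% and 16.2% of features given above. In N-T3 8 of 19 were higher and 2 lower, against 17.2% and 18.2%. Both stages shared 7 higher genes, *Ugt35A1*, *Ugt35C1*, *Ugt37C2*, *Ugt49B1*, *Ugt49C1*, *Ugt302C1* and *Ugt302K1*, with *Ugt37D1* called in N-T0 alone and *Ugt37A1* in N-T3 alone. The median log2 fold change over all listed members was 1.62 in N-T0 and 2.12 in N-T3. With group means under 3 set to 3, a setting added after seeing the data, it was 1.22 in N-T0 and 1.21 in N-T3. Over the 10 members with a mean of at least 10 it was 3.01 and 2.71, and over those with at least 30 it was 3.87 and 4.65, but several members reach these minimums only through the allograft level, which raises the median. The median over all features with no minimum was -0.0034 in N-T0 and -0.0052 in N-T3. Most of the family was scarce in the primary tumor cells, since 8 of 21 members lay under 3 normalized counts in N-FACS and only 3 reached 30. With a mean of at least 30, 4 of 6 members were higher and 1 lower in N-T0, beside 18.6% and 20.6% of features. In N-T3, 3 of 5 were higher and 1 lower, beside 22.0% and 23.7%. Passing the minimum through the allograft level also raises these counts of higher genes, and the counts of lower genes are near the shares of features. Against a change of 0.5 rather than 0, 5 members were called higher and 1 lower in N-T3, and none lower in N-T0. With the adjusted p held to 0.01, 1 was lower in N-T3. The shares of all features under these stricter settings were not counted.

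**Figure D4:**
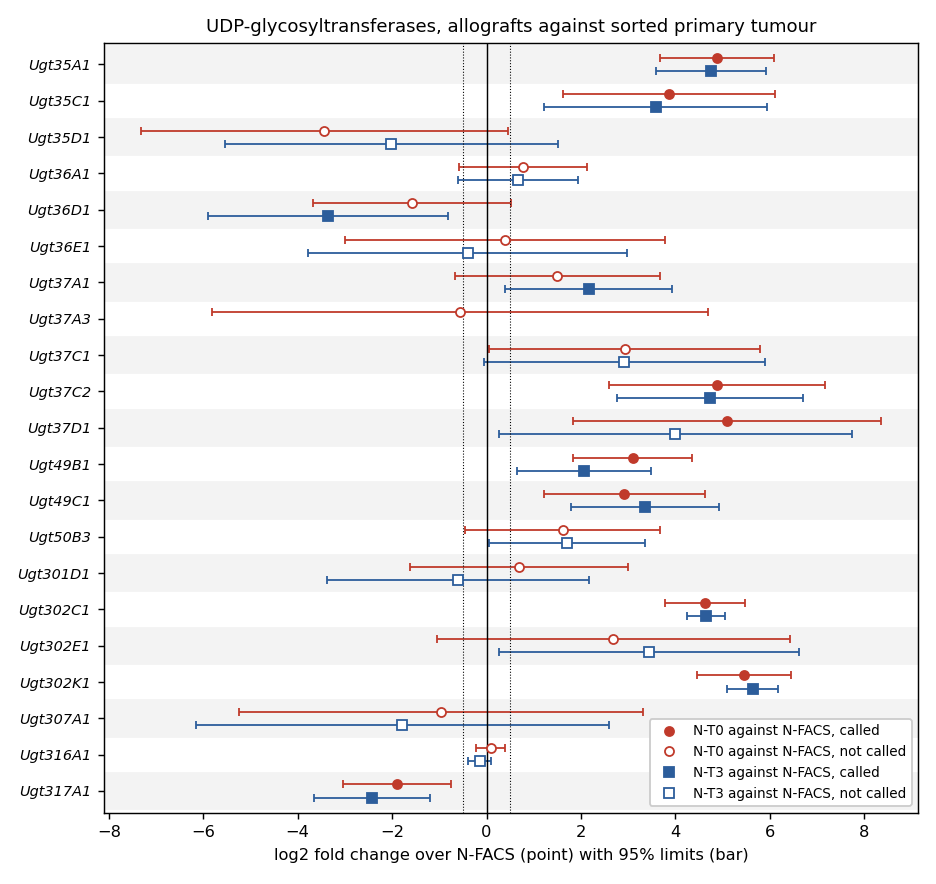
Log2 fold change of each UDP-glycosyltransferase gene over N-FACS, with 95% limits, for N-T0 (red circles) and N-T3 (blue squares), where filled symbols are called genes and dotted lines mark a change of 0.5 either way. *Ugt302C1* and *Ugt302K1* lie between 4.64 and 5.64 with the narrowest limits of the higher genes, and *Ugt316A1* lies at 0.

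*Ugt302C1* and *Ugt302K1* had the highest levels among the genes that rose. *Ugt302C1* averaged 1148 normalized counts in N-T0 against 46.1 in N-FACS (log2 fold change 4.64, SE 0.43, adjusted p = 8.52e-25), and 1185 in N-T3 against 47.3 in N-FACS (4.65, SE 0.21, adjusted p = 5.10e-107). *Ugt302K1* averaged 572 in N-T0 against 13.0 in N-FACS (5.46, SE 0.51), and 664 in N-T3 against 13.3 in N-FACS (5.64, SE 0.28). Neither was called between the allograft stages, with log2 fold changes of N-T3 over N-T0 of 0.02 (95% limits -0.67 to 0.72) and 0.20 (-0.53 to 0.93). *Ugt35A1* averaged 127 in N-T0 against 4.30 in N-FACS (4.88, SE 0.61), and 118 in N-T3 against 4.37 in N-FACS (4.76, SE 0.60). These 3 genes lie near *Ugt302E1* on chromosome 3R, all between positions 11151026 and 11172664, and genes without a row between them were not looked for. *Ugt302E1* had under 7 normalized counts in each group and was not called.

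*Ugt49B1* averaged 59.2 normalized counts in N-T0 and 6.93 in N-FACS (log2 fold change 3.09, SE 0.64, adjusted p = 1.26e-05). In N-T3 it averaged 29.3 against 6.98 in N-FACS (2.07, SE 0.73, adjusted p = 0.0119). Its exons share 90 bases with *CG44245* on the opposite strand. The other higher genes had means under 21 normalized counts over both groups compared. *Ugt37C2*, at 36.0 in N-T0 and 32.8 in N-T3, was under the floor of 3 in N-FACS, and was at least 12.0-fold higher in N-T0 and at least 10.9-fold higher in N-T3.

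*Ugt316A1* stood apart, as the most abundant member in the primary tumor with no call in any comparison. It averaged 1619 normalized counts in N-T0 against 1524 in N-FACS (95% limits of the log2 fold change -0.22 to 0.40), and 1408 in N-T3 against 1560 in N-FACS (-0.38 to 0.09). It was the only member of its family whose limits stayed within 0.5 in these comparisons. *Ugt317A1* moved down, with 19.1 normalized counts in N-T0 against 71.3 in N-FACS (-1.90, SE 0.58, adjusted p = 0.00494), and 13.6 in N-T3 against 72.9 in N-FACS (-2.42, SE 0.63, adjusted p = 0.000450). *Ugt36D1* was called lower in N-T3 at 1.06 normalized counts, under the floor, against 10.9 in N-FACS, at least 3.63-fold lower.

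The composition of the family changed with these genes. Per kilobase of exon it summed to 1514 normalized counts in N-T0 against 583 in N-FACS, and to 1476 in N-T3 against 595 in N-FACS. *Ugt316A1* made up 33.9% of the sum in N-T0 and 82.9% in N-FACS. *Ugt302C1* led in N-T0 at 38.0%, followed by *Ugt316A1* and by *Ugt302K1* at 14.8%, and in N-FACS it held 3.97%. In N-T3 *Ugt302C1* held 40.3% and *Ugt302K1* 17.6%. Without division by length, *Ugt316A1* stayed ahead of *Ugt302C1*, at 1619 against 1148 normalized counts in N-T0 and 1408 against 1185 in N-T3. *Ugt316A1* has 3154 bases of exon and *Ugt302C1* 1994, so the lead of *Ugt302C1* in both allografts rests on the division by length. No test was made on these sums.

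No member of either family was called between N-T3 and N-T0, where 0.429% of all features were called higher and 1.02% lower. The median log2 fold change with a mean of at least 10 was 0.11 for the glutathione S-transferases and -0.10 for the UDP-glycosyltransferases. An unadjusted DESeq2 p under 0.05 was found for 3 of 31 and 1 of 18 members. *GstS1* averaged 293 normalized counts in N-T3 against 579 in N-T0 (log2 fold change -0.98, SE 0.32, adjusted p = 0.113). *GstD2* averaged 37.3 in N-T3 and 12.5 in N-T0 (1.58, SE 0.62, adjusted p = 0.299), and *GstD5* averaged 263 and 154 (0.77, SE 0.34, adjusted p = 0.438). *Ugt49B1* averaged 27.4 in N-T3 and 55.1 in N-T0 (-1.01, SE 0.49, adjusted p = 0.535). The limits of many members still allowed sizeable changes, and stayed within 1 log2 unit of no change for 14 glutathione S-transferases and 3 UDP-glycosyltransferases. The 9 glutathione S-transferases called against N-FACS in N-T3 and not in N-T0 are therefore not shown to differ between the allograft stages. The SE of the glutathione S-transferases was also smaller in the comparison of N-T3 with N-FACS, with a median of 0.34, against 0.47 in that of N-T0 with N-FACS.

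**Figure D5:**
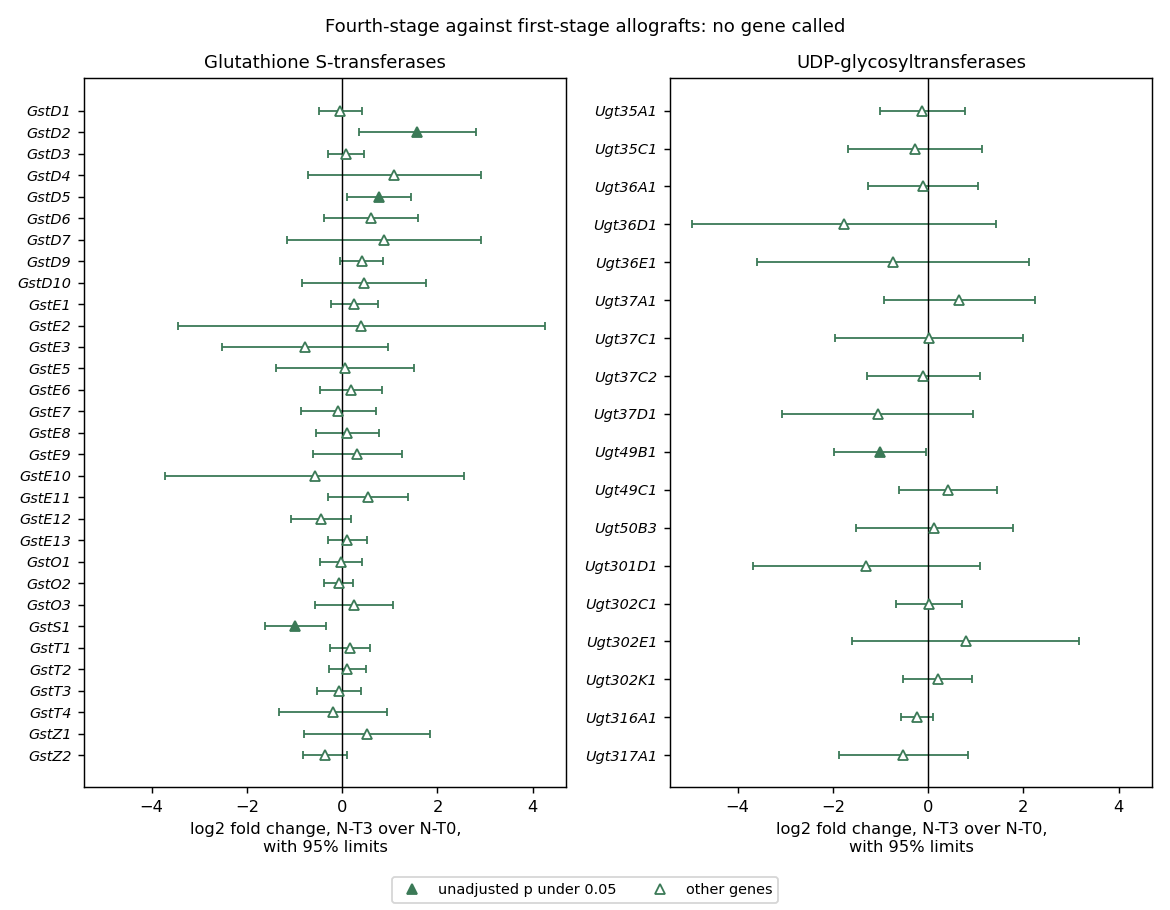
Log2 fold change of N-T3 over N-T0 with 95% limits for the listed members of both families, where filled triangles have an unadjusted p under 0.05. No gene was called, and *GstD2*, *GstD5*, *GstS1* and *Ugt49B1* are the 4 filled ones.

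Genes that serve both families were taken from lists. For glutathione itself, *Gclc*, the catalytic subunit of glutamate-cysteine ligase, rose in both stages, with 326 normalized counts in N-T0 against 177 in N-FACS (log2 fold change 0.88, SE 0.25) and 392 in N-T3 against 181 in N-FACS (1.11, SE 0.19). *Gclm*, its regulatory subunit, was not called, at 0.19 in N-T0 and 0.37 in N-T3. *Ggt-1*, a gamma-glutamyl transferase that breaks glutathione down outside the cell, was called higher in N-T0 alone, with 59.8 normalized counts against 7.32 in N-FACS (3.03, SE 0.71). In all, 2 of the 3 listed genes of this group were higher in N-T0 and 1 in N-T3, beside 15.3% and 17.2% of all features.

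Of 6 ABC transporter genes, 4 were higher and 1 lower in both stages, beside 15.3% and 16.2% of all features in N-T0 and 17.2% and 18.2% in N-T3, so the count of lower genes is near that of features at large. *Mdr49* rose most, with 307 normalized counts in N-T0 against 76.0 in N-FACS (log2 fold change 2.01, SE 0.49) and a change of 2.25 in N-T3 (SE 0.27). *MRP*, an exporter of conjugates, rose by 0.67 (SE 0.22) and 0.60 (SE 0.14), and *Mrp4* by 1.14 (SE 0.43) and 1.63 (SE 0.32), each in N-T0 and then N-T3. *Mdr65*, which acts at the blood-brain barrier of the fly, was lower, with 1.08 normalized counts in N-T0 against 18.9 in N-FACS and 3.25 in N-T3 against 19.2 in N-FACS.

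For the sugar donors, *Pgm1*, phosphoglucose mutase, rose by 0.81 (SE 0.21) in N-T0 and 1.07 (SE 0.18) in N-T3. *sgl*, UDP-glucose dehydrogenase, was lower, at -0.69 (SE 0.25) and -0.59 (SE 0.24), and *UGP*, which makes UDP-glucose, was not called. Of the 4 regulators, *cnc*, the fly counterpart of Nrf2, its inhibitor *Keap1* and the xenobiotic receptor *Hr96* were not called in any comparison. The *cnc* partner *maf-S* was called in N-T3, with 935 normalized counts against 654 in N-FACS (0.52, SE 0.18, adjusted p = 0.0138). Of *se*, *Mgstl* and *gfzf*, which hold a glutathione transferase domain or activity and lie outside the symbol rule, none was called.

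Markers of other tissues are given by list, and the lists did not all move the same way. Of the plasmatocyte markers, 5 of 7 were higher in each allograft stage, summing to 2797 normalized counts in N-T0 against 911 in N-FACS and 1860 in N-T3 against 932 in N-FACS. Of the 6 listed fat body markers, 4 were higher in each. Of the 4 listed gut markers, all under 3 normalized counts in N-FACS, 3 were higher in N-T0 (sum 416 against 1.71 in N-FACS) and 2 in N-T3 (27.7 against 1.74). *Mal-A1* held 95.3 of the N-T0 sum and had no p-value, which by the study's legend marks an extreme count in a single library. *betaTry* held 216 with an SE of 2.35, so the weight of a single library in this sum is unknown. Of the Malpighian tubule markers, 1 of 5 was higher in N-T0 (*Uro*), while in N-T3 1 of 4 listed was higher (*Uro*) and 1 lower (*CapaR*), and the list's median log2 fold change was 0.21 in N-T0 and -1.34 in N-T3. Both oenocyte markers were higher in N-T0 and neither was called in N-T3. Of 4 trachea markers, 1 was higher and 1 lower in each stage. Of 5 muscle markers, 2 were higher in N-T0 and 1 in N-T3, and none was lower. All 5 neuron markers and 4 of 5 glia markers were lower in both stages. Of 6 neural stem cell markers, 2 were lower in N-T0, 1 was lower in N-T3 and none was higher. Of all features, 15.3% were called higher and 16.2% lower in N-T0, and 17.2% and 18.2% in N-T3. A count of 1 gene in 5 or 6 is near these shares.

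Between the allograft stages the gut markers summed to 25.9 normalized counts in N-T3 against 383 in N-T0, and the oenocyte markers to 304 against 1186. *Mal-A1*, again without a p-value, held 87.6 of the gut sum in N-T0, so the same limit holds there. The plasmatocyte markers summed to 1710 against 2621, and no marker of these 3 lists was called. The fat body markers summed to 13648 in N-T3 against 14736 in N-T0, but *FASN1* alone held 13106 and 12517 of these. Every other listed fat body marker had a lower mean in N-T3, and the list's median log2 fold change was -1.70. Of this list 2 genes, *Yp3* and *apolpp*, were called lower in N-T3. The Malpighian tubule markers summed to 21.5 in N-T3 against 67.4 in N-T0, and none was called. In the same comparison *Ugt302C1* averaged 1087 in N-T3 and 1069 in N-T0, *Ugt302K1* 610 and 531, and *GstD1* 5301 and 5440. Other members had lower means in N-T3, as *GstS1* (293 and 579) and *Ugt49B1* (27.4 and 55.1). Higher means were found for *GstD2* (37.3 and 12.5) and *GstD5* (263 and 154), and none of the members was called. The part of host cells, and of neurons and glia in the sorted cells, in the changes of these enzymes was not tested.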

How the data were processed

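Poly(A) RNA was sequenced from 9 libraries in 3 groups. By the study's methods, the authors aligned reads with STAR 2.7.5 to the BDGP6.32 genome, counted them with featureCounts 2.0.1 and compared groups with DESeq2 1.30.1. The authors deposited 3 comparison tables, and no counts per library were used here. The deposited columns hold the mean normalized count over both groups, the log2 fold change with its SE, a score (the Wald statistic), a p-value and an adjusted p-value. They were taken as deposited. The sequencing depth is unknown.

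Group means were derived from base mean and log2 fold change with 3 libraries each. Limits are 95% normal limits. Exon length and position came from the Ensembl 115 annotation (BDGP6.54), matched by gene ID. A group mean under 3 normalized counts was set to 3 for bounds. The tables were normalized separately: the N-FACS mean in the N-T3 comparison was 1.01 to 1.03 times that in the N-T0 comparison (22 members), so pairs come from 1 table. The median log2 fold change of all features with a mean of at least 30 was -0.0026 in N-T0, -0.0061 in N-T3 and 0.021 between the allografts.

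Members, lists and tests were chosen with earlier results of these data known. Values are given for members called with a mean of at least 30, for the most abundant member of each class, for the 5 most abundant UDP-glycosyltransferases and for called list genes. Other members given with values were picked after these were seen. The test against a change of 0.5 was tested on simulated data. Analyses were run in Python 3.11.15 with pandas 2.3.3 and SciPy 1.17.1.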

Additional observations from a re-analysis of the deposited data

How the results depend on the processing

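No paired analysis was possible because the deposited comparisons hold no values per library. For the same reason no fit without a given library and no edgeR fit was run, and the weight of any single library is unknown. A mean of at least 30 normalized counts is reached by several UDP-glycosyltransferases only through the allograft level. With this minimum, 4 of the family were higher in N-T0 (8 without it), and 3 were higher (8) and 1 lower (2) in N-T3. The family's median log2 fold change was then 3.87 in N-T0 and 4.65 in N-T3, and with no minimum it was 1.62 in N-T0 and 2.12 in N-T3. With no minimum and group means under 3 set to 3, which was chosen after seeing the data, it was 1.22 in N-T0 and 1.21 in N-T3, as low counts then give bounds. An adjusted p of at most 0.01 gave 1 UDP-glycosyltransferase lower in N-T3. In a Wald test against a log2 fold change of 0.5, 5 glutathione S-transferases were higher in N-T0, and 9 higher and 1 lower in N-T3. In the same test no UDP-glycosyltransferase was lower in N-T0 (0 genes), and 5 were higher and 1 lower in N-T3. The share of all features called was not counted for this test or for the adjusted p of 0.01. Of 238 values of called members among the 25 named ones, 207 kept direction and call under the alternatives, 31 lost the call and 0 reversed. Another 209 values belonged to members with no call, and 0 of these gained one. No member was called between N-T3 and N-T0 under any alternative run. The alternatives for calls kept the log2 fold changes, at most shifted by the median of all features. Most of them only made the criterion stricter. Reversed or gained calls were therefore hardly possible, and their absence is no support. Genes under the floor of 3 normalized counts have bounds only.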
